A study of Rattus norvegicus with 3 samples.

Results

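Chemokines and their receptors were described as a family in rat soleus, the slow postural muscle of the calf. The family was taken as every gene whose symbol in the array annotation starts with Ccl, Cxcl, Ccr or Cxcr followed by a digit, together with Cx3cl1 and Cx3cr1, from probe sets that carry exactly 1 symbol. This gave 48 genes, 32 ligands and 16 receptors or receptor-like genes, of 14506 genes named on the array, and each of the 48 had 1 probe set.

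The animals were 7-week-old rats of a strain labelled Brown, and every group, the control included, was irradiated continuously for 2 weeks to a total absorbed dose of 50 mSv. Group Ct had only the irradiation. Denervation was added to it in group DN, and in group TS tail suspension, in which the hind limbs bear no weight. RNA of the 6 rats of each group was pooled and hybridised to 1 Affymetrix Rat Gene 1.0 ST array per group, so 3 arrays hold all the data. How the muscle was denervated is not given in the sources used here, and an unirradiated or untreated muscle was not analysed here. With 1 array a group there is no spread between samples and no test, and every difference given here describes 3 pools.

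Values are the deposited RMA values, read as log2, so that a difference of 1 is a 2-fold difference. A gene was taken as bright enough to compare when the mean of its 3 values reached the 30th percentile of all named genes, 5.72, and a difference was counted when it reached 1.5-fold, 0.585 on the log2 scale. The tissue was checked with 10 fibre genes. All 10, Myh7 and Acta1 among them, were above this brightness limit, with mean log2 values of 13.3 in Ct, 12.9 in DN and 13.1 in TS. The median of the 10154 bright genes lay 0.13 higher on the TS array than on Ct and 0.01 higher on DN, and centring the arrays on that median takes these amounts from each difference.

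Chemokines are small secreted proteins that bind G protein-coupled receptors and guide leukocytes along their gradients. They are grouped by the spacing of their first cysteines into CC, CXC and CX3C ligands, and the receptors carry the name of the group they bind. In skeletal muscle, ligands of Ccr2 draw monocytes into injured tissue, where they become macrophages, ligands of Cxcr2 draw neutrophils, and the pair Cxcl12 and Cxcr4 guides muscle precursor cells during development and repair.

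Of the 48 genes, 5 were at least 1.5-fold higher in denervated than in control soleus and none was lower. They were the B cell attractant Cxcl13, the monocyte attractants Ccl7 and Ccl12, and the receptors Cxcr4 and Cxcr6. In suspended soleus 5 genes were at least 1.5-fold higher than in Ct and none was lower, namely the receptors Cxcr2, Ccr1 and Ccr2 and again Ccl12 and Ccl7. These shares are 10.4% of the family in each comparison. Over all named genes, 3.55% were as much higher and 3.91% as much lower in DN, and 4.64% were as much higher and 1.95% as much lower in TS. Over the named genes bright enough to compare, these shares were 4.93% and 5.53% in DN and 5.89% and 2.68% in TS. Each family gene has a single probe set, so no second one checks it. Over 401 other genes with a further bright probe set, 95% of the disagreements between both lay under 0.33 in DN minus Ct, 0.73 in TS minus Ct and 0.76 in DN minus TS. All 5 DN differences named above exceed the first of these sizes, whereas in TS Ccl7 and Ccr2 lie below the second. Of the 10154 bright genes, 4355 had equal values on Ct and DN and 2506 on Ct and TS. How far such ties make the first size smaller was not tested, so the contrast does not rank the DN differences as firmer. A disagreement between probe sets within the same pools holds no spread between animals or arrays, so exceeding it does not place a difference beyond error. It was taken from bright probe sets. It is no measure for Cxcr2, nor for Ccl12 and Cxcl13, whose Ct values lie below the brightness limit. The Ct value of Cxcr6, 5.74, lies barely above that limit of 5.72. Both comparisons use the same Ct array, so a Ct value that lies low by error raises a gene in both. Centring the arrays brings Ccl7 in TS and Cxcr6 in DN short of 1.5-fold, and adding 32 to each value on the linear scale does so for Ccl7 in TS, for Cxcl13 and Cxcr6 in DN, and for Ccl12 in both.

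**Figure D1:**
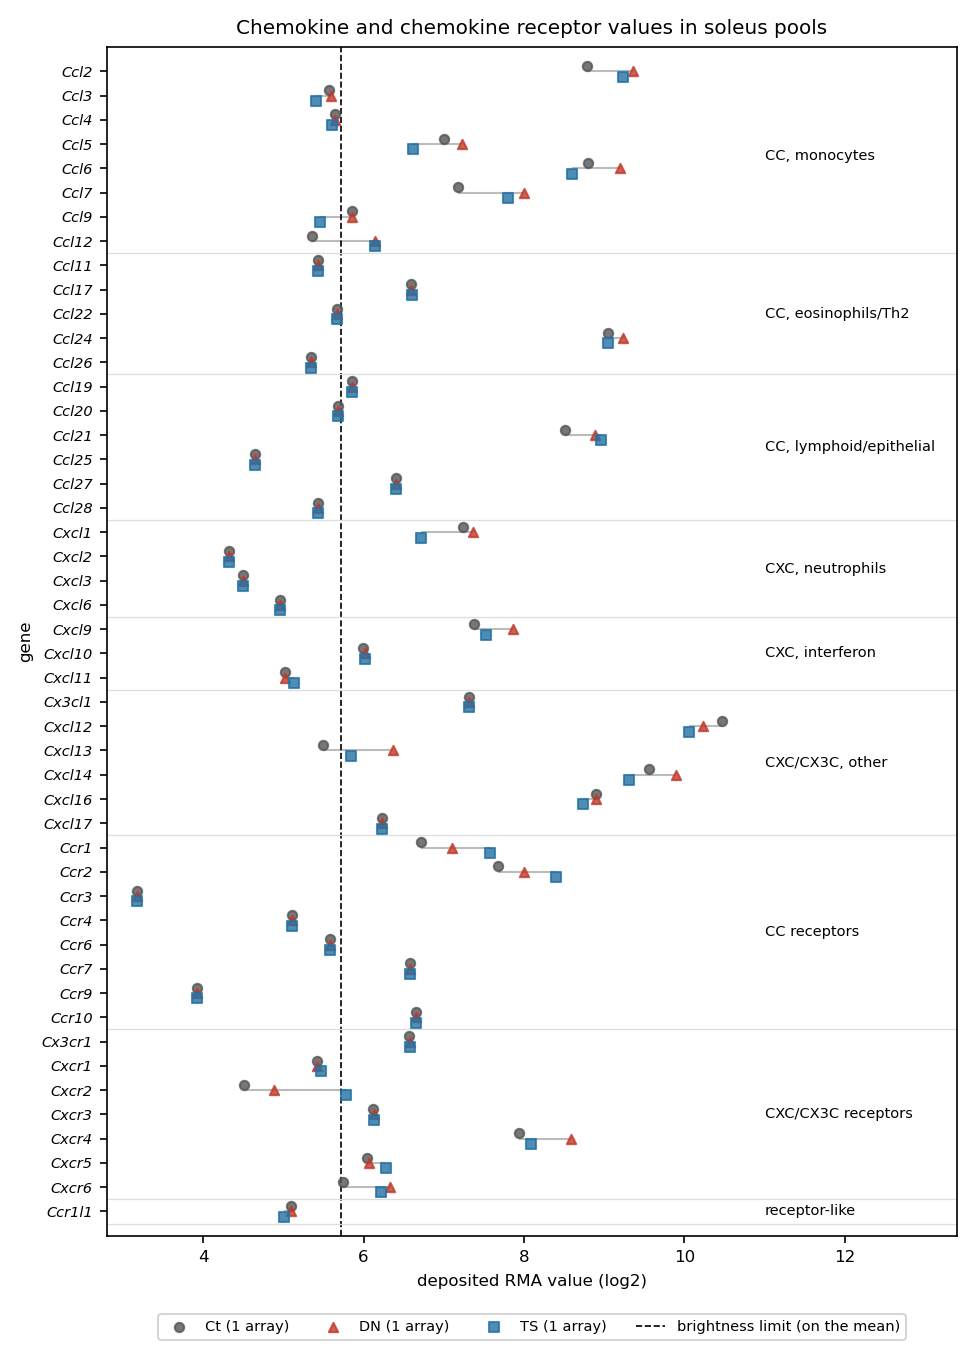
Deposited log2 value of each of the 48 genes on the Ct, DN and TS arrays, ordered by role, with a line from the lowest to the highest value and the brightness limit dashed; points of a gene are set apart vertically. The 3 arrays return exactly the same value for 18 of the 48 genes, and 12 genes span at least 1.5-fold. Past the limit 11 of 28 family genes span that much, beside 1688 of all 10154 named genes, and below it 1 of 20, beside 117 of 4352. Equal values on the 3 arrays are held by 20.5% of all named genes past the limit and 58.8% of those below it.

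The brightness limit was passed by 28 of the 48 genes, 19 ligands and 9 receptors. Of these, Ccl12 and Cxcl13, read below it in Ct (5.36 and 5.49) and passed through their higher values elsewhere. Ccl19 and Ccl12 were the dimmest genes to pass, with means of 5.85 and 5.88, and Ccl9 and Ccl20 were the brightest to fail, with means of 5.72 and 5.68. The median difference over the 28 genes was 0.15 in DN against Ct and 0.013 in TS against Ct, beside 0.00 and 0.017 over the 10154 bright genes. Over all 48 genes the median was 0.00 in both comparisons, since 25 genes were equal on Ct and DN and 19 on Ct and TS. An equal value can arise when RMA summarises probes over 3 arrays, and is no evidence of an equal level.

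Among CC ligands that attract monocytes, the 3 ligands of Ccr2 were higher than Ct in both treated pools. Ccl7 read 7.17 in Ct, 8.01 in DN and 7.80 in TS. This was 0.83 above Ct in DN, a 1.78-fold difference that 2.96% of bright genes exceeded, and 0.63 above Ct in TS, or 1.54-fold. Ccl7 binds Ccr1 and Ccr3 as well as Ccr2. Ccl12, a rodent relative of Ccl2, read 5.36 in Ct and 6.15 in both DN and TS, a difference of 0.79 or 1.73-fold in each. Ccl2, the principal monocyte attractant, read 8.79 in Ct, 9.35 in DN and 9.24 in TS. Its differences of 0.57 and 0.45 lay short of the 1.5-fold limit, so the Ct pool was the lowest of the 3 for all 3 ligands. Ccl2, Ccl7 and Ccl12 are related in sequence, and their probe sets may share signal. In bulk muscle, more cells of a type cannot be told apart from more RNA in each cell.

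The other monocyte ligands had a different order, with TS lowest. Ccl6, a rodent ligand of Ccr1, read 8.80 in Ct, 9.20 in DN and 8.60 in TS. Ccl5, which attracts T cells and monocytes, read 7.01 in Ct, 7.22 in DN and 6.62 in TS. Each was above Ct in DN (0.40 and 0.21) and below Ct in TS (-0.20 and -0.39), and DN exceeded TS by 0.60 in both genes, just past 1.5-fold. Ccl9, a further Ccr1 ligand, read 5.85 in Ct and in DN and 5.46 in TS. Ccl3 and Ccl4, inflammatory ligands made by activated macrophages, stayed below the brightness limit on every array, between 5.41 and 5.64.

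In the rat genome assembly GRCr8 these genes fall into separate runs on chromosome 10. Ccl2, Ccl7, Ccl11 and Ccl12 follow each other with no other protein-coding gene between them, as do Ccl5, Ccl9, Ccl6, Ccl3 and Ccl4. In the first run the 3 Ccr2 ligands stood above Ct in both treated pools, whereas the eosinophil attractant Ccl11 read 5.43 on all 3 arrays, below the limit. In the second run all 5 genes read lower in TS than in Ct, by 0.39 for Ccl5 and Ccl9, 0.20 for Ccl6, 0.16 for Ccl3 and 0.04 for Ccl4, and none of these reached 1.5-fold. These orderings were noticed in the values and were not chosen beforehand.

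The promoters of the ligands with the largest differences are shown because the Ccr2 ligands Ccl7 and Ccl12 differ from Ct in both pools, Cxcl13 differs mostly in DN, and Cxcl1, a ligand of the neutrophil receptor Cxcr2, is lowest in TS. Each is the 250 bases before the annotated start in RefSeq (GRCr8), 5′ to 3′ on the strand of the gene, with capitals marking matches on either strand to a TATA box (TATAAA), an AP-1 site (TGANTCA), a GAS element bound by STAT factors (TTCNNNGAA) or the NF-kappaB consensus.
Ccl7, chr10:67513845-67514094, plus strand: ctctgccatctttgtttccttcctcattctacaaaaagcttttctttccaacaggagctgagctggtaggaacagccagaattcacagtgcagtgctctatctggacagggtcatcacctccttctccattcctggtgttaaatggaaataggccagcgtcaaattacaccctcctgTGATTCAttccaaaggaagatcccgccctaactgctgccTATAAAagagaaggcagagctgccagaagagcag
Ccl12, chr10:67567626-67567875, plus strand: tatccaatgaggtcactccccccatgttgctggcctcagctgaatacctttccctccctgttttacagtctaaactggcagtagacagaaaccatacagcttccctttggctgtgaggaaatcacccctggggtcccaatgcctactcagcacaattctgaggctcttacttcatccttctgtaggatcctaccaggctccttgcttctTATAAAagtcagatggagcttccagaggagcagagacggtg
Cxcl13, chr14:13917921-13918170, minus strand: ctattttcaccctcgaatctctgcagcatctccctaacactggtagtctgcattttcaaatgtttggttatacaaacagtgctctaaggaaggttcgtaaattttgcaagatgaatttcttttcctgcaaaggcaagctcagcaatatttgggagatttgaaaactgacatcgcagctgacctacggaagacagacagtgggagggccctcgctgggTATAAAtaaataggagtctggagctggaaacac
Cxcl1, chr14:17479322-17479571, minus strand: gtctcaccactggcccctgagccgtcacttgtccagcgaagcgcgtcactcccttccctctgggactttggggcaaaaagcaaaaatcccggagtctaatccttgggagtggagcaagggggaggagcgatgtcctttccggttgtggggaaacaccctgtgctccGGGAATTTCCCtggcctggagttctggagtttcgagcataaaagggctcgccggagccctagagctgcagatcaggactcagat
Ccl7 holds an AP-1 match that begins 73 bases before the start and a TATA box at 34. Ccl12 and Cxcl13 hold a TATA box each, at 41 and 33 bases. Cxcl1 holds overlapping NF-kappaB matches, 1 on each strand, that begin 84 and 83 bases before the start. The RefSeq table held promoters of 37 of the 48 genes. Of these, 8 (21.6%) hold an NF-kappaB match, against 3.54% of all 33469 promoters of that length. The AP-1 motif is in 6 (16.2%, against 6.34% of all), the GAS motif in 4 (10.8%, against 7.67%) and the TATA box in 11 (29.7%, against 12.9%). Matching letters describe the sequence and do not show that a factor binds there. Of the 8 genes with an NF-kappaB match, Cxcl2, Cxcl6, Ccl20 and Ccr3 were below the brightness limit with the same value on all 3 arrays, Cxcl11 and Ccl9 were also below it, and Cxcl1 and Cxcl10 were above it.

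CC ligands of eosinophils and of T helper 2 cells differed little. Ccl24, an eotaxin, read 9.05 in Ct, 9.23 in DN and 9.05 in TS, a difference of 0.18 for DN minus Ct. Ccl17, a ligand of Ccr4, read between 6.59 and 6.60. Ccl11, Ccl22 and Ccl26 were below the limit and each had a single value on the 3 arrays. Of 6 lymphoid and epithelial CC ligands, Ccl21 alone had unequal values. Ccl21, made by lymphatic endothelium as a signal for dendritic and T cells, read 8.51 in Ct, 8.89 in DN and 8.96 in TS, 0.38 and 0.45 above Ct and short of 1.5-fold. Ccl19 and Ccl27 were above the brightness limit and Ccl20, Ccl25 and Ccl28 below it, each with equal values on all 3 arrays.

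The CXC ligands of neutrophils and those induced by interferon gamma were represented mainly by 1 gene each. Cxcl1 read 7.23 in Ct, 7.36 in DN and 6.72 in TS. TS lay 0.52 below Ct, and DN lay 0.65 above TS, or 1.56-fold. With the arrays centred, TS was 0.65 below Ct and past 1.5-fold. Cxcl2, Cxcl3 and Cxcl6 were below the brightness limit, with equal values on the 3 arrays. Cxcl9, a ligand of Cxcr3 induced by interferon gamma, read 7.37 in Ct, 7.86 in DN and 7.52 in TS, a difference of 0.49 in DN and 0.15 in TS. Cxcl10 read 5.99 in Ct and 6.02 in the other pools, and Cxcl11 lay below the limit at 5.01, 5.01 and 5.14.

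Cxcl13 had the largest difference of the family in DN in the deposited values. It draws B cells into lymphoid follicles and read 5.49 in Ct, 6.36 in DN and 5.84 in TS. DN was 0.87 above Ct, or 1.83-fold, a difference that 2.73% of bright genes exceeded, and TS was 0.35 above Ct. Its Ct value lay below the brightness limit, and with 32 added on the linear scale the DN difference was 0.57, short of 1.5-fold and less than the 0.71 of Ccl7. Cxcl12, the ligand of Cxcr4 made by stromal cells, went the other way, with 10.47 in Ct, 10.23 in DN and 10.06 in TS. Its differences of -0.24 and -0.42 lay short of 1.5-fold, and 95.4% of bright genes had a higher difference in TS. Cxcl14, made by fibroblasts and epithelium, read 9.56 in Ct, 9.90 in DN and 9.31 in TS, so that DN was 0.59 above TS, at the 1.5-fold limit, while neither differed by 1.5-fold from Ct. Cxcl16, a membrane-bound ligand of Cxcr6, read 8.90 in Ct and DN and 8.73 in TS. Cx3cl1, the membrane-tethered ligand of Cx3cr1, stayed between 7.31 and 7.32, and Cxcl17 at 6.23.

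**Figure D2:**
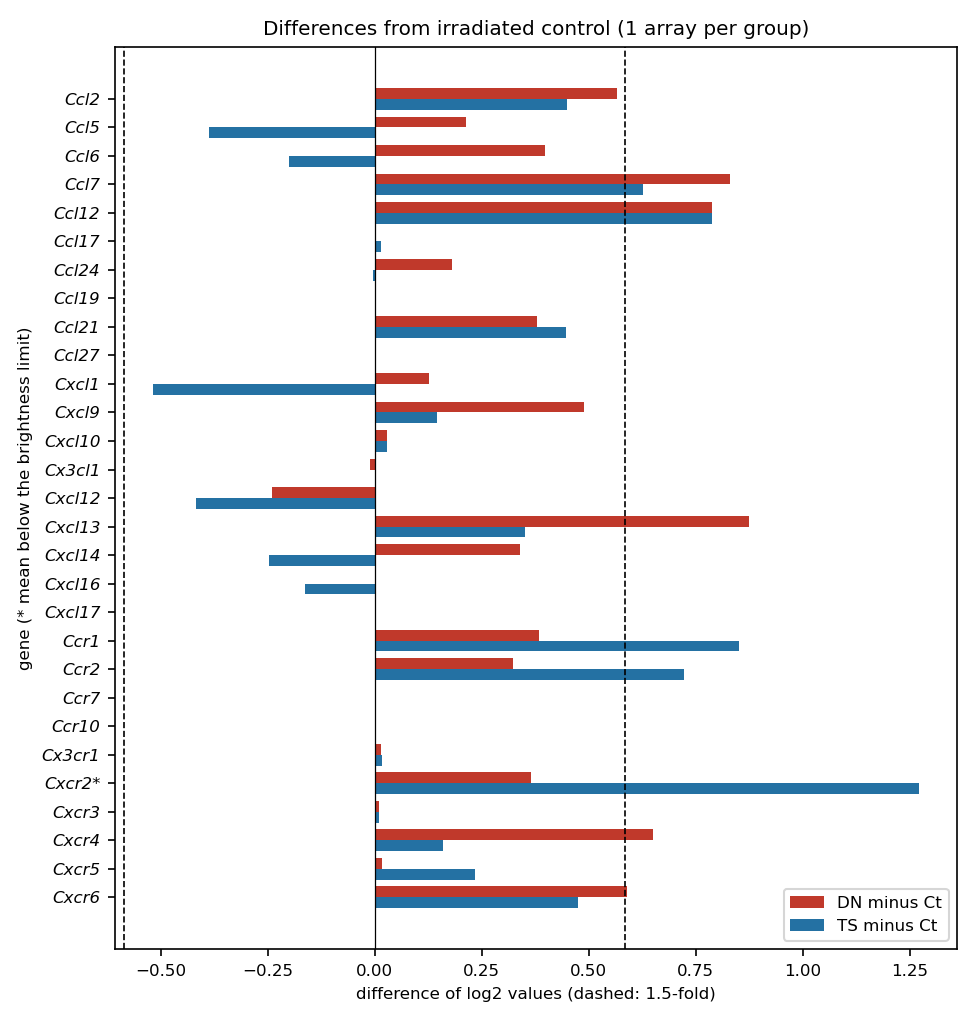
Differences of log2 values from Ct for DN and TS, for the 28 genes above the brightness limit and for Cxcr2, marked with a star because its mean lies below the limit; dashed lines mark 1.5-fold. Ccl7 and Ccl12 pass the line in both comparisons, Cxcl13, Cxcr4 and Cxcr6 in DN, and Ccr1, Ccr2 and Cxcr2 in TS.

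The monocyte receptors Ccr1 and Ccr2 were highest in TS. Ccr1 read 6.72 in Ct, 7.10 in DN and 7.57 in TS. TS was 0.85 above Ct, or 1.8-fold, a difference that 2.18% of bright genes exceeded, while DN was 0.38 above Ct. Ccr2, which marks inflammatory monocytes, read 7.68 in Ct, 8.0 in DN and 8.40 in TS, 0.72 above Ct in TS (1.65-fold) and 0.32 in DN. Both receptors thus stood in the order Ct, DN, TS, and TS exceeded DN by 0.47 and 0.40, short of 1.5-fold. Both kept their place past the limit in TS under all scalings tried, from 0.69 to 0.85 for Ccr1 and from 0.59 to 0.72 for Ccr2. The other CC receptors did not vary. Ccr7, the receptor of Ccl19 and Ccl21 on dendritic and T cells, and Ccr10 were above the brightness limit at 6.58 and 6.65 on every array, and Ccr3, Ccr4, Ccr6 and Ccr9 were below it. The receptor-like gene Ccr1l1, a relative of Ccr1, was also below it, at 5.09, 5.09 and 5.01.

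Macrophage markers stood in the same order as these receptors. Their mean log2 value over 12 genes was 8.30 in Ct, 8.45 in DN and 8.80 in TS. Of the 11 that were bright enough, 4 were at least 1.5-fold higher in TS, with a median of 0.56, against 5.89% of bright genes. These were Cd163 (1.17), Mrc1 (0.95), Mertk (0.61) and Adgre1 (0.60), and with the arrays centred the last 2 would fall short. In DN none of the 11 reached 1.5-fold, with a median of 0.13, and Marco was the member below the limit. The part of macrophage number in the Ccr1, Ccr2, Ccl2 and Ccl7 values was not tested.

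Among CXC receptors, Cxcr4 and Cxcr6 were highest in DN. Cxcr4, carried by leukocytes, endothelial cells and muscle precursors, read 7.93 in Ct, 8.58 in DN and 8.09 in TS. DN was 0.65 above Ct, or 1.57-fold, and TS 0.16 above Ct. Its ligand Cxcl12 was lower in both pools. Cxcr6, found on T cell subsets, read 5.74 in Ct, 6.33 in DN and 6.21 in TS. Its difference of 0.59 in DN lay at the limit and fell short once the arrays were centred, and that in TS was 0.48. Satellite cell markers, which mark muscle stem cells, had 3 of 7 genes at least 1.5-fold higher in each pool, Myf5, Itga7 and Met. The shares of bright genes as much higher were 4.93% in DN and 5.89% in TS. Chodl (-0.90) was the 1 marker as much lower in TS, beside 2.68% of bright genes. The median of the 7 was 0.11 in DN and 0.07 in TS, and the myogenic factor Myf5 stood furthest out, at 2.00 in DN and 0.82 in TS. The part of these cells in the Cxcr4 value was not tested. Lymphocyte markers averaged 5.49 in Ct, 5.49 in DN and 5.46 in TS over 13 genes. The T cell genes Cd3d, Cd3e and Cd3g were below the limit, and none of the 4 brighter markers differed by 1.5-fold in either pool.

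Cxcr2, the receptor of Cxcl1 and its relatives on neutrophils, had the largest difference of the family in TS in the deposited values, from dim values. It read 4.51 in Ct, 4.88 in DN and 5.78 in TS. TS was 1.27 above Ct, and only the TS value reached the brightness limit. With 32 added on the linear scale, which damps dim values, the difference was 0.67 and that of Ccr1, at 0.69, was larger. Among the 4352 named genes below that limit, 1.72% were at least 1.5-fold higher in TS. The TS pool was thus highest for Cxcr2 and lowest for its ligand Cxcl1. Neutrophil and mast cell markers averaged 5.77 in Ct, 5.72 in DN and 5.80 in TS over 10 genes, and S100a8, S100a9, Mpo, Elane and Csf3r all had means below the limit. Csf3r, the receptor of a growth factor of neutrophils, read 5.52 in Ct and DN and 5.87 in TS, 0.35 above Ct. Of its values, that in TS alone passed the limit. The differences of TS from Ct were 0.14 for S100a9 and -0.09 for Mpo. S100a8 (4.02) and Elane (5.43) each had the same value on every array. The part of neutrophils in the Cxcr2 value was not tested. Cxcr1, which neighbours Cxcr2 in the genome, was below the limit at 5.42, 5.42 and 5.47.

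Cxcr5, the receptor of Cxcl13 on B cells, read 6.04 in Ct, 6.06 in DN and 6.28 in TS, and so did not share the DN value of its ligand. Cxcr3, the receptor of Cxcl9 on activated T cells, stayed between 6.12 and 6.13. Cx3cr1, carried by resident macrophages and patrolling monocytes, read 6.56 in Ct and 6.58 in DN and TS.

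Set side by side, 14 receptors had named ligands in the family, and for 9 of them the receptor and at least 1 ligand were bright enough. The pair of Ccr2 and its ligands was the one in which the receptor and each bright ligand read above Ct by more than 0.1 in both pools. Of these ligands, Ccl12 counts as bright only through its DN and TS values, with a Ct value of 5.36. That it reads above Ct is therefore partly set by the limit, and all genes of the pair share the 1 Ct array. In the pairs of Cxcr4 with Cxcl12, of Cxcr6 with Cxcl16 and of Ccr1 with Ccl5 and Ccl6 the members went different ways, each by more than 0.1, in at least 1 pool. Ccl7, the other bright ligand of Ccr1, read above Ct in both pools, as Ccr1 did. The receptors Ccr7, Ccr10, Cxcr3 and Cx3cr1 differed by less than 0.1 between any 2 arrays.

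**Figure D3:**
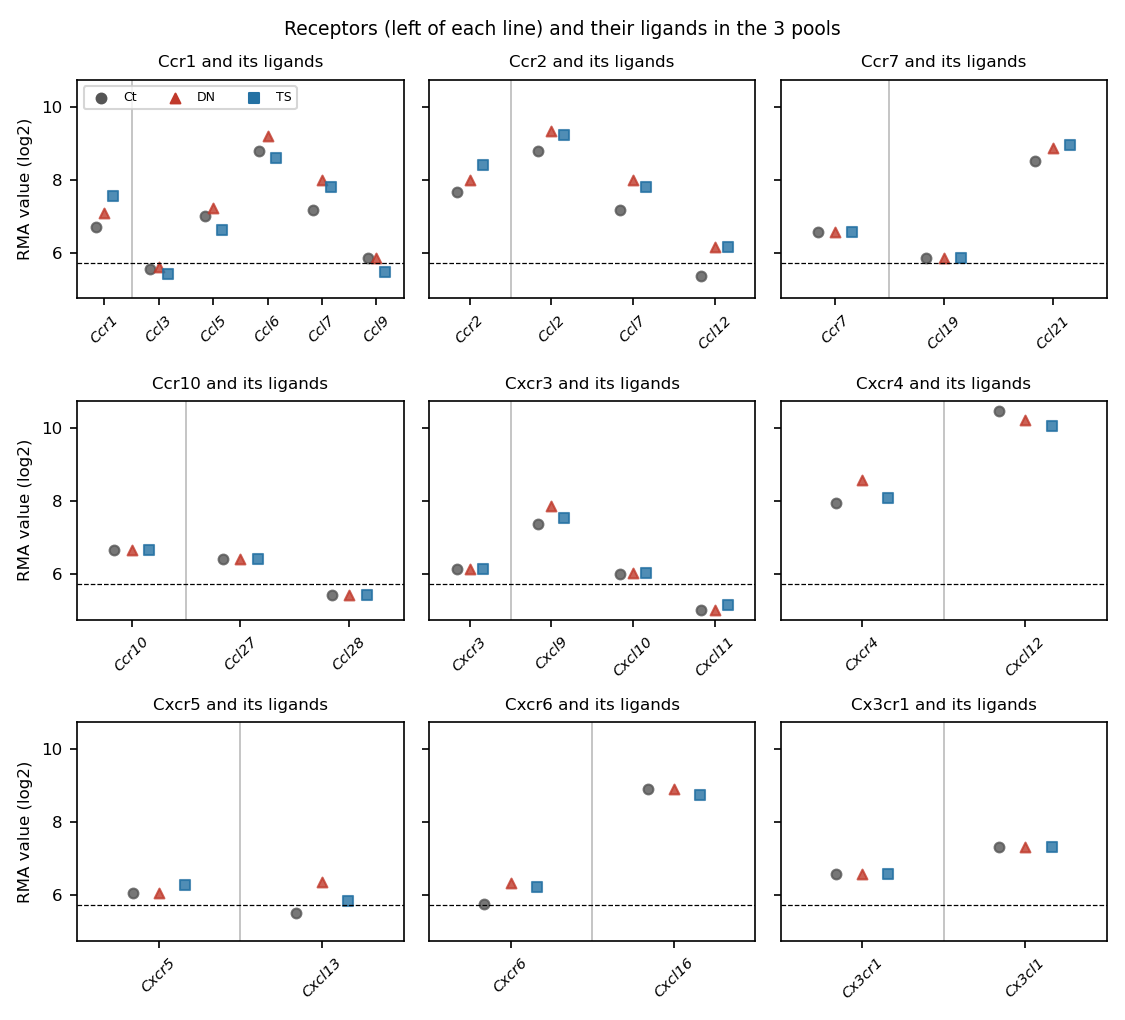
Deposited log2 values on the Ct, DN and TS arrays of the 9 receptors that, with at least 1 ligand, passed the brightness limit (dashed); each receptor stands left of the grey line and its ligands right of it, and values of different genes are not to be ranked against each other. In the Ccr2 panel the Ct point is the lowest for the receptor and for Ccl2, Ccl7 and Ccl12.

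DN and TS were also compared directly. Of the 48 genes, 4 were at least 1.5-fold higher in DN than in TS (8.33%, against 2.35% of all named genes), Cxcl1, Ccl5, Ccl6 and Cxcl14, all of them ligands. Cxcr2, by -0.91, was the 1 gene that was lower in DN (2.08%, against 4.74% of all). The 4 ligand differences lie below 0.76, the size under which 95% of disagreements between probe sets of a gene lay. That size was taken from bright probe sets and is no measure for Cxcr2, which was dim in Ct and DN and whose difference is -0.50, short of 1.5-fold, with 32 added on the linear scale. Among bright receptors none differed by 1.5-fold between DN and TS in the deposited values, where Cxcr4 stood 0.49 higher in DN. With the arrays centred (0.62) or quantile normalized (0.61) Cxcr4 passes the limit, as does Cxcl13 with the arrays centred (0.65). Past the brightness limit, 3.20% of genes were as much higher and 5.93% as much lower in DN.

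Genes around the chemokine pathway were set beside the family, from lists chosen with earlier results of these data known. Of 12 bright relatives outside the symbol rule, Ackr3, a receptor that removes Cxcl12, was at least 1.5-fold lower in DN. Rarres2, which encodes the attractant chemerin, was at least 1.5-fold higher in TS. Over all bright genes, 5.53% were as much lower in DN and 5.89% as much higher in TS, so 1 of 12 in each case is near these shares. Ackr3 read 11.34 in Ct, 10.72 in DN and 10.96 in TS, differences of -0.61 and -0.37 in the same direction as Cxcl12. Rarres2 read 8.52, 8.89 and 9.21, which is 0.69 above Ct in TS and falls short of the limit once the arrays are centred. The platelet chemokine Pf4 lay 0.37 above Ct in TS.

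Genes that induce chemokines included 1 of 21 bright members at least 1.5-fold higher in DN, a share near the 4.93% of all bright genes, and none in TS. This was Nfkb2, a subunit of the NF-kappaB transcription factors, which read 7.98 in Ct, 8.80 in DN and 8.43 in TS, 0.83 above Ct in DN and 0.45 in TS. Stat3 was 0.44 above Ct in DN and 0.39 in TS. Tnf and Il1b, cytokines that induce many chemokines, each had the same value on all 3 arrays (5.94 and 6.27), and Il6 was below the limit. None of 20 bright genes of receptor signalling differed by 1.5-fold, with Grk6 (0.50) and Grk2 (0.45), kinases that desensitise receptors, highest in TS and the Rac exchange factor Prex1 (0.42) in DN. Among 16 bright genes of chemokine processing and presentation, Timp1 was the 1 gene past the limit, at 1.09 in DN and 1.56 in TS. Timp1 encodes an inhibitor of matrix metalloproteinases. Over all bright genes, 4.93% were at least 1.5-fold higher in DN and 5.89% in TS. Dpp4, a protease that clips chemokines, was 0.10 above Ct in DN and 0.47 in TS.

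Markers of other cells that make or bind chemokines moved as follows. Of 7 bright dendritic cell and antigen presentation genes, 3 were at least 1.5-fold higher in DN, RT1-Ba (0.93), Cd74 (0.76) and RT1-Da (0.66), and 1 in TS, RT1-Ba (0.69), which falls short once the arrays are centred. The shares of all bright genes as much higher were 4.93% in DN and 5.89% in TS, and those as much lower 5.53% and 2.68%. These 3 genes belong to the MHC class II pathway, while Flt3 (0.04), Cd83, Batf3 and Xcr1 (0.00 each) differed little in DN, and the median of the 7 was 0.04 in DN and 0.17 in TS. Fibroblast markers averaged 10.96 in Ct, 10.96 in DN and 10.95 in TS, with 1 of 10, Pdgfra (0.81 in TS), past the limit. Endothelial markers averaged 9.55, 9.22 and 9.44, with Kdr (-0.87) and Flt1 (-0.70) at least 1.5-fold lower in DN. In TS, Kdr (-0.73) was as much lower and Lyve1 (0.84) as much higher, while Lyve1 stood at -0.21 in DN. Adipocyte markers averaged 8.39, 9.04 and 8.90, with 3 of 8 at least 1.5-fold higher in each pool and 1, Lpl (-0.90), lower in TS. The part of these cells in the chemokine values, such as lymphatic endothelium in Ccl21, was not tested.

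**Figure D4:**
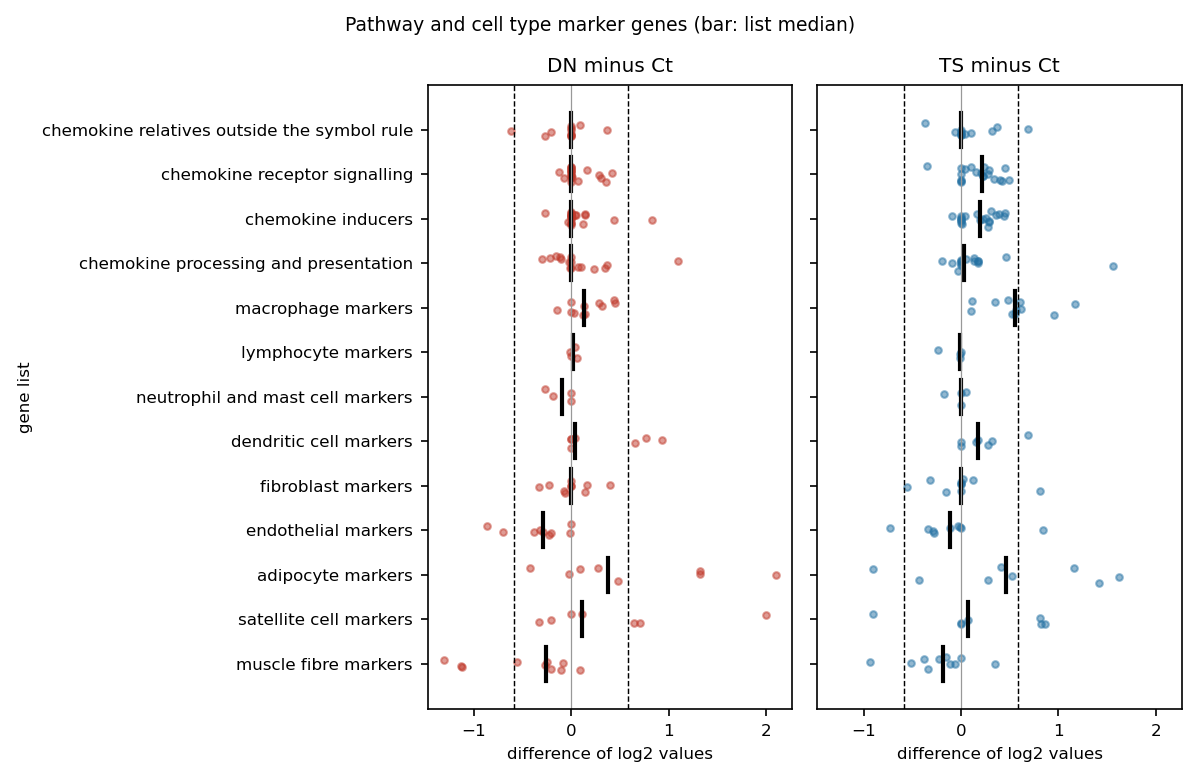
Differences of log2 values from Ct for genes above the brightness limit on 4 pathway lists and 9 cell type marker lists, in DN and in TS; each point is a gene, the bar is the median of the list and dashed lines mark 1.5-fold. Macrophage markers have a median of 0.13 in DN and 0.56 in TS.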

How the data were processed

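Soleus RNA pooled from 6 rats per group was measured on 1 array for each of 3 groups, placed by their labels. The deposited log2 values were made by the authors with RMA in Affymetrix Expression Console (core-exon analysis), per the labels. That the base is 2 is read from the range of the values and not stated. The series text names 2 arrays, and 3 arrays with values were used. The version, annotation and build behind them are not stated in the labels, and no coordinates of probes are given.

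Of 29170 probe sets, 15310 had 1 gene symbol in the platform annotation, 323 had several and 13537 had none, and only the first kind was used. All 48 chemokine genes were found by gene identifier in RefSeq (GRCr8), with no symbol changed. Several probe sets of a gene were represented by the brightest. Every family gene could be named, with the up to 4 most different genes of each list and any past 1.5-fold; Tnf, Il1b, Il6 and single markers below the limit were added for their role. The family, lists and limits were chosen with earlier results of these data known. Counting was tested on simulated data. Alternatives were centring each array, a loess trend (span 0.3), quantile normalization, an offset of 32 on linear values, other handling of probe sets, other brightness limits, 2-fold, and means. Arrays give no read depth; their number limits the precision. Python 3.11.15, numpy 2.4.6, pandas 2.3.3, statsmodels 0.14.6 and matplotlib 3.10.9 were used.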

Additional observations from a re-analysis of the deposited data

Results flagged for a closer look

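Ccl5, Ccl6, Cxcl1 and Cxcl14 stood out because DN lay above Ct and TS below it while DN and TS were at least 1.5-fold apart. The DN minus TS difference was 0.60 for Ccl5, 0.60 for Ccl6, 0.65 for Cxcl1 and 0.59 for Cxcl14 (log2). The difference was not tested, since each group is 1 array, and both sides share the Ct array. Each of the 4 fell short of 1.5-fold with 32 added on the linear scale.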

How the results depend on the processing

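Counts are of genes at least 1.5-fold different among those past the brightness limit, 5 in DN minus Ct, 4 in TS minus Ct and 4 in DN minus TS. With 32 added on the linear scale they were 2, 2 and 0, with the brightness limit at the 50th percentile 2, 2 and 2, and with a 2-fold limit 0, 0 and 0. The median of the family in TS minus Ct, 0.013, became negative with the arrays centred (-0.12), the loess trend removed (-0.017) or quantile normalization (-0.043), as did that of all bright genes; its direction in TS thus depends on the scaling. The DN minus TS median, 0.00, was 0.13 with the arrays centred and 0.18 at the 50th percentile. The DN minus Ct median, 0.15, was 0.00 over all 48 genes and 0.36 at the 50th percentile. Means in place of medians were, in the same order as the counts, 0.25, 0.12 and 0.13. Other medians moved by no more than the median disagreement between 2 probe sets of a gene, which was 0.03, 0.11 and 0.09 in that order. Of the 5 genes of all 48 past 1.5-fold in DN minus Ct, Ccl7 and Cxcr4 stayed past it under all 6 scalings and probe set choices, as did Ccr1, Ccr2 and Cxcr2 of the 5 in TS minus Ct. None of the 5 in DN minus TS did. The probe set choices among the 6 could not change any of these values, since each family gene has 1 probe set. Ccl7 in TS ran from 0.49 to 0.63 and was short of the limit under all 4 settings that rescale the values. No called gene changed direction. No paired analysis was possible because each group is 1 array.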

Other observations

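Family genes below the brightness limit mostly had the same value on all 3 arrays (13 of 20, 65.0%), beside 58.8% of all 4352 named genes below it. Past the limit this held for 5 of 28 (17.9%), against 20.5% of the 10154 bright genes.

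Of the 48 genes, 32 lie in 9 runs of neighbouring family genes in GRCr8, allowing up to 3 other protein-coding genes between neighbours. The run with most members lies on chromosome 8 and holds Ccr9, Cxcr6, Ccr1, Ccr3, Ccr1l1 and Ccr2. Ccr1, Ccr2 and Cxcr6 were above the brightness limit and read above Ct in DN and in TS, while Ccr9 and Ccr3 were below it with equal values on the 3 arrays. In the run of Cxcl2, Cxcl1, Cxcl3 and Cxcl6 on chromosome 14, Cxcl1 alone was above the limit and alone had unequal values.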
